A study of Mus musculus with 40 samples.

Results

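Heat shock proteins and their cochaperones were followed at the RNA level in the dorsal hippocampus of 40 mice. The genes were taken by symbol, as all rows starting with Hspa, Hspb, Hspd, Hspe, Hsph, Hsp90, Dnaja, Dnajb or Dnajc, together with Bag1 to Bag6, Stip1, Chordc1, Ahsa1 and Hsf1. The rule matched 84 of the 20953 genes of the table, and 77 of these had a mean of at least 0.5 RPKM (reads scaled to transcript length and to the mapped reads of the library) over the 40 libraries, as did 14173 genes in all. The 7 genes below that minimum were Dnajc5b, Hspb7, Dnajc5g, Dnajb8, Hspb9, Dnajb7 and Dnajc22, and they were not tested.

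The labels give the strain of every mouse as C57BL/6J, and the study's methods give a C57BL/6 background for the old mice of both genotypes. Wildtype mice aged 2 to 4 months (YWT), wildtype mice aged 18 to 20 months (OWT) and HDAC3flox/flox mice aged 18 to 20 months (H3F) were killed directly from the home cage (HC) or 60 min after training in object location memory (BV). There were 6 libraries in each wildtype group and 8 in each HDAC3flox/flox group, 1 mouse a library. In the HDAC3flox/flox mice Hdac3 was deleted with AAV-CaMKII-Cre, a virus whose Cre is driven by a promoter of excitatory neurons, so other cell types of the tissue keep the gene. By the study's methods the old wildtype mice were littermates of these, the young libraries come from an earlier experiment, and mice of both Hdac3 genotypes were given this virus, the old wildtype mice included. No infusion of the young mice is given in the sources used here. Age, experiment and infusion therefore cannot be told apart in any comparison of old with young mice. By the paper's figure legend every group held both sexes, in shares that differ between the cohorts. The labels do not give the sex of a mouse, so it was not adjusted for. The tissue holds neurons, glia and vessels together, and fewer cells of a type and less RNA per cell cannot be told apart in it.

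Heat shock proteins bind unfolded or partly folded proteins and release them after cycles of ATP use. HSP70 proteins do so with the help of J-domain partners (the DNAJ families), which bring substrates and start ATP hydrolysis, and of nucleotide exchange factors such as the BAG proteins and HSP110. HSP90 takes over a smaller set of clients, helped by Stip1, Ahsa1 and Chordc1. Small heat shock proteins hold aggregating proteins without ATP, and in muscle and neurons HSPB8 works with BAG3 to hand aggregates to autophagy. Hsf1 encodes the transcription factor that binds heat shock elements when misfolded protein builds up in the cytosol, and a separate response, the unfolded protein response, serves the endoplasmic reticulum (ER).

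Estimated depth was 12.7 to 38.8 M reads a library. Hdac3 itself was 29.97 ± 1.631 RPKM (SD, n = 6) in OWT-HC and 16.2 ± 1.62 (n = 8) in H3F-HC mice, and 30.3 ± 1.89 (n = 6) and 18.4 ± 4.35 (n = 8) in the trained groups. Over all genes tested, 6 libraries lay at least 1.5 times as far from their group mean as the median library of their group, namely OWT-HC-110A, H3F-HC-112B, H3F-HC-121B, YWT-BV-1923, H3F-BV-108D and H3F-BV-113D (named by group and animal). Microglial markers (8 genes) summed to 142 to 167 RPKM in YWT-HC and to 203 to 1196 in OWT-HC mice, where OWT-HC-110A was the lowest and the other 5 libraries began at 500.2. Oligodendrocyte markers (8 genes) summed to 1799 to 3073 RPKM in YWT-HC and 907 to 1674 in OWT-HC mice. Dentate granule cell markers (6 genes) ranged from 10.4 to 184 RPKM in H3F-HC mice against 104.2 to 192.4 in OWT-HC mice. Choroid plexus markers (8 genes) ranged from 5.66 to 9260 RPKM over the 40 libraries, and the highest sum was that of YWT-BV-1923. Of the marker genes in the table, none was at 0 in every library.

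Sequence around the start sites was read for the letters of heat shock and ER stress elements, because members that share such letters are described side by side in what follows. RefSeq start windows of GRCm38.p6, from 250 bases before to 50 after the start, were at hand for 63 of the 77 members. The head-to-head pair GAANNTTC, read on both strands, was in the windows of 15 of these 63 members and of 9.04% of all 27025 genes with a window. The longer arrangements, which contain it and add either GAA or TTC at a distance of 2 bases (GAANNTTC, NN, GAA, or TTC, NN, GAANNTTC), were in the windows of 5 members (Chordc1, Dnajb6, Hspd1, Hspe1 and Hsph1) and of 0.662% of all genes. The ER stress response element (CCAAT, any 9 bases, CCACG), also on both strands, was in the windows of Hspa5, Hsp90b1 and Dnajc3 and of 0.137% of all genes, and the second form (ATTGG, any 1 base, CCACG) was in that of Dnajb11 and of 0.0444% of all genes. A match of letters is not a binding site. The ER stress letters of the 4 ER chaperones are in capitals below, with the gene's strand, 5′ to 3′. Hsp90b1 holds them 1 time on each strand, and the Hsp90b1 and Dnajc3 runs are the bases before the start that no GENCODE exon covers.
Hspa5 chr2:34772020-34772049 (+): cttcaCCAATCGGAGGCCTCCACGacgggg
Hsp90b1 chr10:86705510-86705694 (-): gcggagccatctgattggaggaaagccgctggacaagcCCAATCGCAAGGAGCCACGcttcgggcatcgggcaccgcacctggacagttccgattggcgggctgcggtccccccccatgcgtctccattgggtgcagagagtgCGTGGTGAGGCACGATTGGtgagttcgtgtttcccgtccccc
Dnajc3 chr14:118937682-118937931 (+): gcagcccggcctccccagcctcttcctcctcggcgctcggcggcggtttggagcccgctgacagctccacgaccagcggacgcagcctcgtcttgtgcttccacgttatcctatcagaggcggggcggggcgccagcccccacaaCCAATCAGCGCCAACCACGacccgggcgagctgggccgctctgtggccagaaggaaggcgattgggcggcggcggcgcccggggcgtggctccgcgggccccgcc
Dnajb11 chr16:22857843-22857872 (+): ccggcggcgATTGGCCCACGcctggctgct

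The heat shock letters are shown for 6 members. Those of Hspe1 fall in the start windows of both Hspe1 and Hspd1, divergent genes that overlap at their ends, and were counted for both. The Hspa1a and Hspa1b runs hold the same 30 bases, and these paralogs share most of their transcript as well.
Hspe1 chr1:55088053-55088082 (+): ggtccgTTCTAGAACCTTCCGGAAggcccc
Chordc1 chr9:18292260-18292289 (+): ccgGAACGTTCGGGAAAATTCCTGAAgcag
Hsph1 chr5:149636279-149636308 (-): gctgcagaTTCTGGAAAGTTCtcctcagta
Hspa1a chr17:34972242-34972271 (-): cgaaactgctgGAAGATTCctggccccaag
Hspb8 chr5:116422844-116422873 (-): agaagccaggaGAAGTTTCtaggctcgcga
Bag3 chr7:128523614-128523632 (+): ggatgggaccaGAAGTTTC

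Members spanned a wide range of levels. By mean RPKM over all libraries the 5 highest were Hsp90ab1 (608), the constitutive cytosolic HSP90, Hsp90b1 (128.99) and Hspa5 (110.4), the HSP90 and HSP70 of the ER, Hspa8 (99.4), the constitutive HSP70, and Hsph1 (85.5), an HSP110 exchange factor. Hsp90ab1 ranked 25 of the 14173 genes tested. The 5 lowest were Dnajb13 (0.845), Hspb2 (0.958), Hspbap1 (1.07), Hspb3 (1.12) and Dnajb3 (1.21). The strongly heat-inducible genes Hspa1a (an HSP70) and Hspb1 (a small heat shock protein) were low, at 1.86 and 1.75 RPKM, against 48.6 for the inducible HSP90 gene Hsp90aa1. Of the 50-base windows of its transcripts, Hspa1a shared 66.3% with other genes, mainly Hspa1b, and Hspa1b shared 62.3%, mainly with Hspa1a. The study kept reads that mapped to 1 place, so the levels of both are uncertain, as are those of Hsp90aa1 (47.5% of windows shared, most with Gm12346), Hspb1 (50.1%, mainly with Hsp25-ps1), Hspd1 (42.1%) and Hspa8 (39.4%), which have pseudogene copies.

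The first question was how the levels of these genes differed between old and young wildtype mice in the home cage. Of the 77 members, 16 were higher in old mice (20.8%) and 12 were lower (15.6%), where 32.1% of all genes tested were higher and 17.7% lower by the same call (limma, p under 0.05 and Benjamini-Hochberg adjusted p under 0.15). By class, J-domain proteins of the DNAJC family gave the most calls in both directions, with 7 of 25 higher and 4 lower. Of the 5 small heat shock proteins 3 were higher and 0 lower. The 8 ER residents, which belong to several classes, were marked gene by gene, and the set may leave out other members located in the ER. Of these 8, 5 were higher and 0 lower. Of the 14 HSP70 and HSP110 genes 1 was higher and 3 lower, of the 3 HSP90 genes 1 was lower, and of the 7 BAG and HspBP1 exchange factors 2 were higher and 1 lower. The median log2 difference was 0.02 over the members and 0.05 over all genes tested. The balance depends on scaling. After quantile normalization 8 members were higher and 22 lower, the median of all genes moving to -0.10, with 2453 of them higher and 5311 lower. After median-ratio scaling 10 members were higher and 18 lower, where 3640 and 3445 of all genes were. The 8 and the 10 were all among the 16 higher members, and the 12 lower members were called after both.

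Bag3, the exchange factor that pairs with HSPB8, showed the largest log2 difference of the called members. It lay at 2.67 to 3.35 RPKM (median 3.01) in YWT-HC and 4.02 to 7.78 (median 5.97) in OWT-HC mice. The groups did not overlap, as they did not for 3 of the 77 members in the higher direction and 9.07% of all genes. The log2 difference was 0.89 ± 0.14 (SE, adjusted p = 0.00154). Bag3 is at chr7:128523616-128546981, with no exon of another gene over it.

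All 5 small heat shock proteins had positive differences, with a median of 0.71, and 3 of them were called. Hspb8 lay at 6.47 to 11.3 RPKM (median 6.96) in YWT-HC and 6.68 to 21.2 (median 13.5) in OWT-HC mice, a log2 difference of 0.71 ± 0.26 (adjusted p = 0.047). Hspb6, which is abundant in muscle and vessel walls, lay at 2.00 to 3.82 (median 2.51) and 2.27 to 7.64 (median 5.20), a difference of 0.75 ± 0.27 (adjusted p = 0.0416). In both genes 2 of the 6 old libraries lay inside the young range and the other 4 lay above it.

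Hspb2 was called as well (0.75 ± 0.25, adjusted p = 0.0318), at a median of 0.416 RPKM in YWT-HC and 1.11 in OWT-HC mice. Of its 834 exon bases, 252 lie under exons of Cryab on the opposite strand, and with a kit that does not mark strand the reads of both cannot be told apart. Hspb1 (0.40 ± 0.18, adjusted p = 0.101) did not pass the threshold on p. OWT-HC-110A had the lowest microglial, astrocyte and endothelial marker sums of its group. It was also the lowest for these genes as a set. Over the small heat shock proteins and Bag3 it stood at a median of -0.75 log2 units from the group mean. Without it Bag3 stood at 0.99, Hspb6 at 0.94 and Hspb8 at 0.90. Choroid plexus markers summed to 21.1 to 3753 RPKM in YWT-HC and 7.82 to 14.5 in OWT-HC mice. The highest young sums were those of YWT-HC-1931 (3753) and YWT-HC-1940 (2575). These libraries also held the highest young values of Hspb8 (11.3 and 10.9). The part of cell composition in these differences was not tested.

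**Figure D1:**
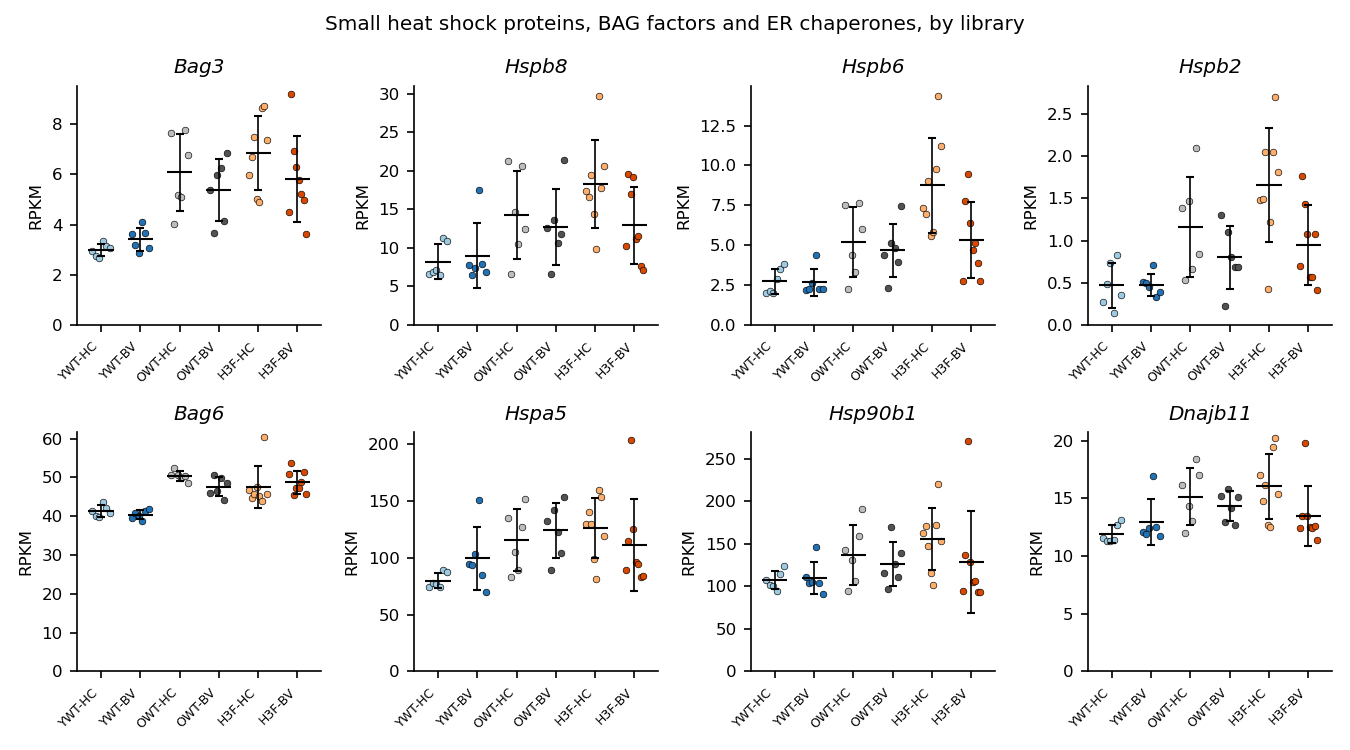
RPKM of 8 members in every library, grouped by age, genotype and training (x axis); points are libraries, bars the group mean and whiskers the SD. Bag3 and Bag6 in the 6 OWT-HC libraries lie above all 6 YWT-HC libraries, while Hspb8, Hspb6, Hspb2 and the ER chaperones overlap.

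The 8 members marked as ER residents all had positive differences (median 0.22) and 5 were called: Hspa5, Dnajb11, Dnajc3, Dnajc1 and Dnajc10. Hspa5, the master HSP70 of the ER, lay at 74.0 to 89.7 RPKM (median 77.3) in YWT-HC and 82.9 to 152 (median 116.01) in OWT-HC mice. The 2 lowest old libraries lay inside the young range and the other 4 above it. The log2 difference was 0.50 ± 0.14 (adjusted p = 0.0146). Dnajb11, its luminal J-domain partner, lay at 11.3 to 13.1 (median 11.5) and 11.95 to 18.42 (median 15.3), a difference of 0.32 ± 0.09 (adjusted p = 0.0189).

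Dnajc3, a J-domain inhibitor of the eIF2 alpha kinases, differed by 0.29 ± 0.12 (adjusted p = 0.0791). Hsp90b1, the ER paralog of HSP90, lay at 94.9 to 124.2 RPKM in YWT-HC and 94.3 to 191 in OWT-HC mice and did not pass, at 0.32 ± 0.15 (adjusted p = 0.104). The 4 members with ER stress letters in their start window were thus at 0.29 to 0.50, with 3 of 4 called. Of the 5 members with the longer heat shock arrangements 1 was higher and 1 lower, at a median of -0.10. Of the 15 with the head-to-head pair 4 were higher and 2 lower, at a median of 0.09. Of the 48 with a window and no heat shock letters 9 were higher and 8 lower. The wider list of ER folding and unfolded protein response genes (18 genes, none a member) had 15 higher and 0 lower in old homecage mice, among them Sdf2l1 (1.12 ± 0.16, adjusted p = 0.00103), Hyou1 (0.30 ± 0.05, adjusted p = 0.00269) and Syvn1 (0.47 ± 0.09, adjusted p = 0.00332), at a median of 0.40. Of the 8 microglial markers 7 were higher and 1 lower in the same comparison, at a median of 1.68, and of the 6 dentate granule cell markers 4 were higher, at 0.50. Of the 8 choroid plexus markers 6 were lower and 0 higher, at a median of -1.92. The part of these cell types in the ER result was not tested.

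Bag6, which guards newly made membrane proteins in the cytosol, had the smallest p of the members. It lay at 39.8 to 43.7 RPKM (median 41.2) in YWT-HC and 48.7 to 52.3 (median 50.5) in OWT-HC mice, with no overlap. The log2 difference was 0.28 ± 0.03 (adjusted p = 0.000404). Dnajc14 (0.16 ± 0.04, adjusted p = 0.0109) was also apart in all libraries, and 1114 of its exon bases lie under Ormdl2 on the opposite strand. Dnajc13, an endosomal J-domain protein, was higher by 0.33 ± 0.09 (adjusted p = 0.0141). Hsf1 lay at 11.6 to 13.6 RPKM in YWT-HC and 12.95 to 15 in OWT-HC mice, a difference of 0.14 ± 0.05 (adjusted p = 0.0364) that missed the threshold after median-ratio scaling and after quantile normalization.

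Among lower members the smallest p was that of Hspa12a, a distant HSP70 relative that is abundant in neurons. It lay at 45.8 to 54.5 RPKM (median 48.7) in YWT-HC and 31.9 to 43.7 (median 38.3) in OWT-HC mice. The groups did not overlap, and 3 of the 77 members were apart in this direction against 5.38% of all genes. The log2 difference was -0.37 ± 0.08 (adjusted p = 0.00452). Ahsa1, which stimulates the ATPase of HSP90, was apart too, at 72.6 to 79.2 RPKM against 64.8 to 69.6, a difference of -0.14 ± 0.03 (adjusted p = 0.00616). The third was Hspa1l (-0.31 ± 0.08, adjusted p = 0.0105), whose exons lie for 1778 bases under an antisense gene.

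Hsp90aa1 lay at 44.7 to 59.3 RPKM (median 53.0) in YWT-HC and 37.0 to 46.1 (median 43.8) in OWT-HC mice. The 3 highest old libraries lay just above the lowest young one, and the other 5 young libraries lay above all old ones. The difference was -0.30 ± 0.07 (adjusted p = 0.00751). Hspa4l, an HSP110 family member, differed by -0.33 ± 0.11 (adjusted p = 0.031), Dnajc15, of the inner mitochondrial membrane, by -0.19 ± 0.05 (adjusted p = 0.0138), and Dnajc27 by -0.26 ± 0.08 (adjusted p = 0.0213).

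The matrix chaperonin moved in opposite directions. Hspd1, its large subunit, differed by -0.10 ± 0.03 (adjusted p = 0.0367), and Hspe1, the lid subunit, by 0.12 ± 0.04 (adjusted p = 0.0525). Their genes are divergent and overlap at their ends, and Hspe1 no longer passed after either rescaling. Hspa8 (-0.08 ± 0.04, adjusted p = 0.134), Hspa9, Hspa4, Hsph1, Hsp90ab1, Hspa1a, Hspa1b, Dnaja1, Dnajb1, Dnajb4, Dnajb5, Stip1 and Chordc1 did not pass in this comparison, with log2 differences from -0.11 to 0.10.

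**Figure D2:**
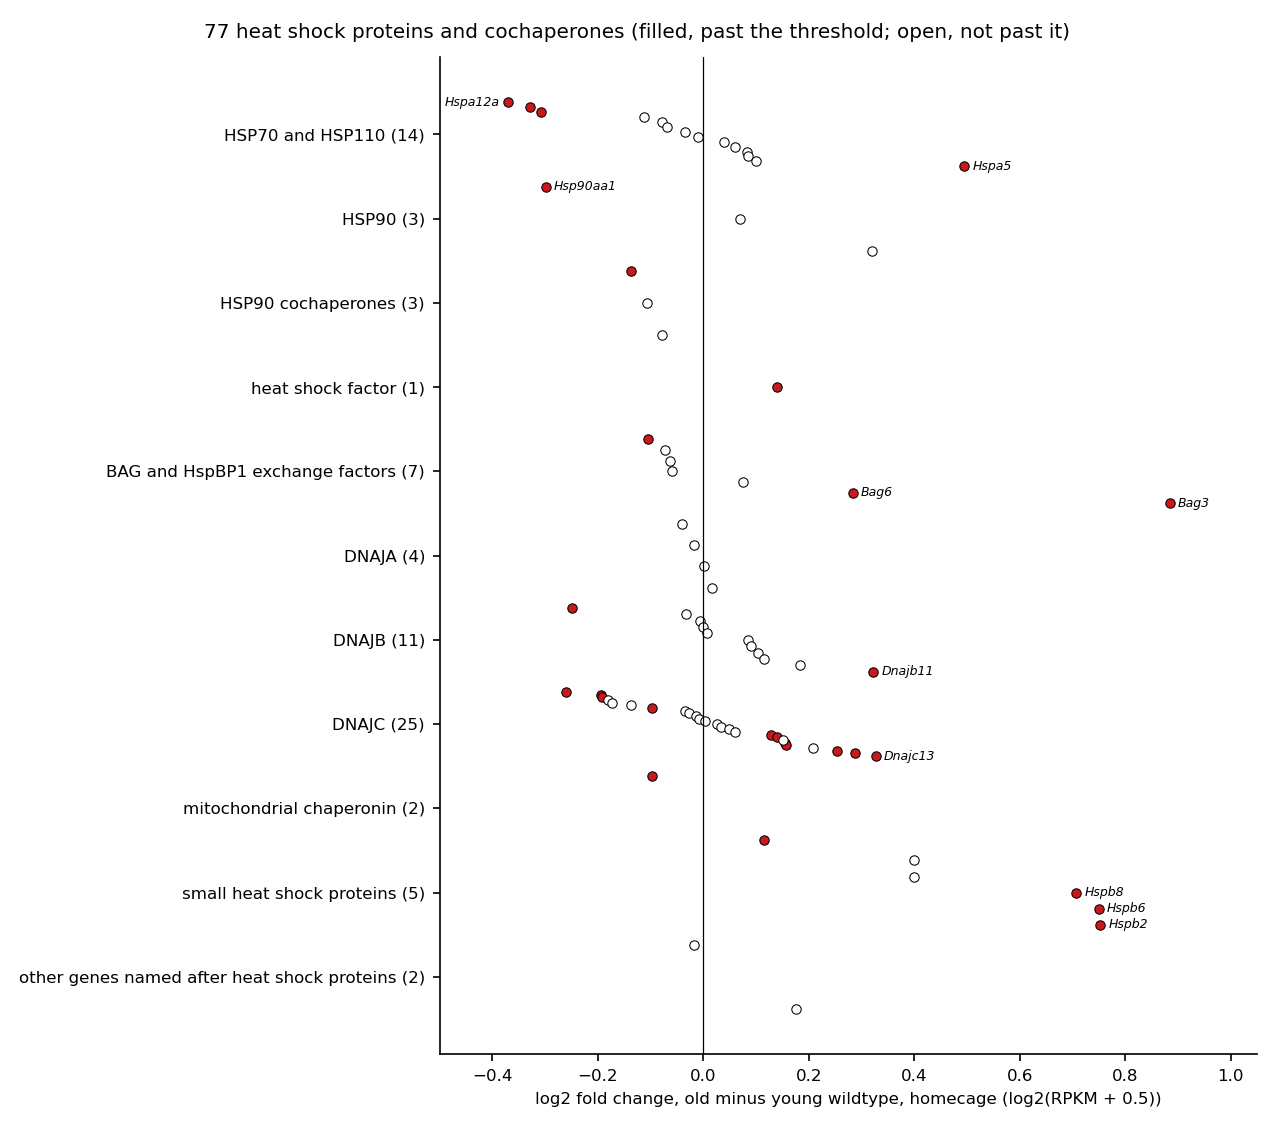
Log2 difference, OWT-HC minus YWT-HC, on the log2(RPKM + 0.5) scale (x axis) for the 77 members by class (y axis); filled points passed the threshold and open points did not. Small heat shock proteins all lie right of 0, with Bag3 the farthest right at 0.89, and Hspa12a is farthest left at -0.37.

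Other chaperone systems were read from lists of genes outside the rule. Of 14 subunits of the TRiC chaperonin and prefoldin, 3 were higher and 4 lower in old homecage mice, at a median of -0.02, the 3 smallest p being Pfdn2 (-0.25 ± 0.04), Vbp1 (-0.15 ± 0.04) and Pfdn1 (-0.16 ± 0.05). Of 15 other HSP90 cochaperones tested, 3 were higher and 4 lower (median -0.02), led by Cdc37l1 (-0.24 ± 0.05). Of 9 mitochondrial chaperones and proteases, 1 was higher (Htra2, 0.26 ± 0.05) and 1 lower (Clpp, -0.16 ± 0.03). Of 13 heat shock factors, crystallins and other HSF1-linked genes tested, 3 were higher and 1 lower (median 0.18), led by Hmox1 (2.05 ± 0.36), a heme oxygenase that microglia and macrophages express.

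The same question in trained mice used other animals throughout. Here 7 members were higher in old mice (9.09%) and 2 lower (2.6%), against 19.1% and 8.81% of all genes tested. The same 9 members were those at an unadjusted p under 0.05, as were 20.2% and 9.56% of all genes. The higher members were Bag6 (0.23 ± 0.04, adjusted p = 0.00185), Bag3 (0.57 ± 0.14, adjusted p = 0.0143), Dnajc14 (0.12 ± 0.04), Hspb3 (0.64 ± 0.20), Hspb6 (0.68 ± 0.22), Dnaja4 (0.20 ± 0.06) and Dnajc16 (0.10 ± 0.04). The lower ones were Hspa12a (-0.28 ± 0.08, adjusted p = 0.032) and Dnajc21 (-0.23 ± 0.07, adjusted p = 0.0446), a ribosome biogenesis J-domain protein.

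Bag6 was again apart, at 38.7 to 41.9 RPKM in YWT-BV and 44.2 to 50.7 in OWT-BV mice, as was 1 of the 77 members in the higher direction and 7.42% of all genes. Hspa8 was apart in the lower direction (2.14% of all genes) without passing the test. It lay at 110.7 to 122.8 RPKM in YWT-BV and 57.4 to 109.4 in OWT-BV mice (-0.25 ± 0.13, adjusted p = 0.238), and the 57.4 RPKM of OWT-BV-104C stood far below the other 5, which began at 101.9. Bag3 overlapped in these mice, at 2.88 to 4.11 RPKM against 3.68 to 6.83.

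Of the 16 members higher in homecage mice 5 were called in trained mice (31.2% of the homecage calls and 71.4% of the trained calls), and 15 had the same sign. Of the 12 lower members 2 were called again and 11 had the same sign. Over all genes tested, 94.4% of the higher and 91.6% of the lower homecage calls kept their sign, against 93.8% and 91.7% of the members, and 2278 of the 4552 higher and 903 of the 2511 lower genes (36.0%) were called again, larger shares than the 31.2% and 16.7% of the members. Of the 8 microglial markers 7 were higher and 1 lower in trained mice, at a median of 1.60, and their part in the members' differences was not tested. The trained counts rest in part on YWT-BV-1923. Without it 13 members were higher and 3 lower, and 6 of the 7 members called as higher with it kept that call. Hspa5 (0.46, adjusted p = 0.0414), Hspb8 (0.69, adjusted p = 0.0461), Dnajb11 (0.22, adjusted p = 0.0222), Hsp90b1, Dnajc3, Dnajc10 and Hspe1 were added to the higher set. Of all genes tested, 3235 were then higher and 1313 lower. After quantile normalization 4 members were higher and 21 lower, where 1760 of all genes tested were higher and 3150 lower. After median-ratio scaling 5 members were higher and 10 lower, where 2382 and 1694 of all genes were.

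The next question was whether training changed these genes within an hour. In young wildtype mice no member passed the threshold in limma, as did 0.31% of all genes in the higher and 0.113% in the lower direction. At an unadjusted p under 0.05, 11 members were higher and 4 lower after training (14.3% and 5.19%, against 6.38% and 3.79% of all genes). The median log2 difference was 0.04 over the members, with 58 of 77 positive, and 0.01 over all genes, with 54.1% positive. The groups overlapped in every one of the 77 members, where 0.741% of all genes were apart in the higher and 0.275% in the lower direction.

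Dnajb5 had the smallest p. It is a J-domain partner of the cytosolic HSP70 proteins and lay at 52.2 to 60.1 RPKM (median 55.5) in YWT-HC and 59.2 to 70.6 (median 66.1) in YWT-BV mice. The highest homecage library lay just above the lowest trained one. The log2 difference was 0.23 ± 0.05 (adjusted p = 0.163). Hspa8 followed, at 96.6 to 112.7 RPKM (median 100.1) and 110.7 to 122.8 (median 112.6), a difference of 0.16 ± 0.04 (adjusted p = 0.189).

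The third was Hspa1l, in the other direction (-0.17 ± 0.05, adjusted p = 0.293). Among the fixed core of 25 well-known members, 24 were positive, and Hsph1 (0.14 ± 0.04), Dnajb1 (0.24 ± 0.07), Stip1 (0.13 ± 0.05), Dnajb4 (0.13 ± 0.06) and Hsf1 (0.11 ± 0.05) had an unadjusted p under 0.05 beside Dnajb5 and Hspa8.

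YWT-BV-1923 was the highest of its group for 55 of the 77 members and stood at a median of 0.35 above the group mean for the ER residents. Hspb8 was at 17.5 RPKM in it and at most 7.97 in the other 5. It had the highest choroid plexus sum, and the part of that tissue was not tested. Leaving it out lowered the members' median to 0.01 with 42 of 77 positive, and Dnajb5 (0.25, adjusted p = 0.0478), Hspa8 (0.14, adjusted p = 0.0851) and Dnajb1 (0.18, adjusted p = 0.148) then passed as higher, and Hspbp1 and Dnajc30 as lower. Of all genes tested, 505 were then higher and 460 lower. Hspa8 alone also passed after median-ratio scaling and after quantile normalization (0.20, adjusted p = 0.0699), and without YWT-HC-1940. Dnajb4 alone passed without YWT-BV-1935.

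**Figure D3:**
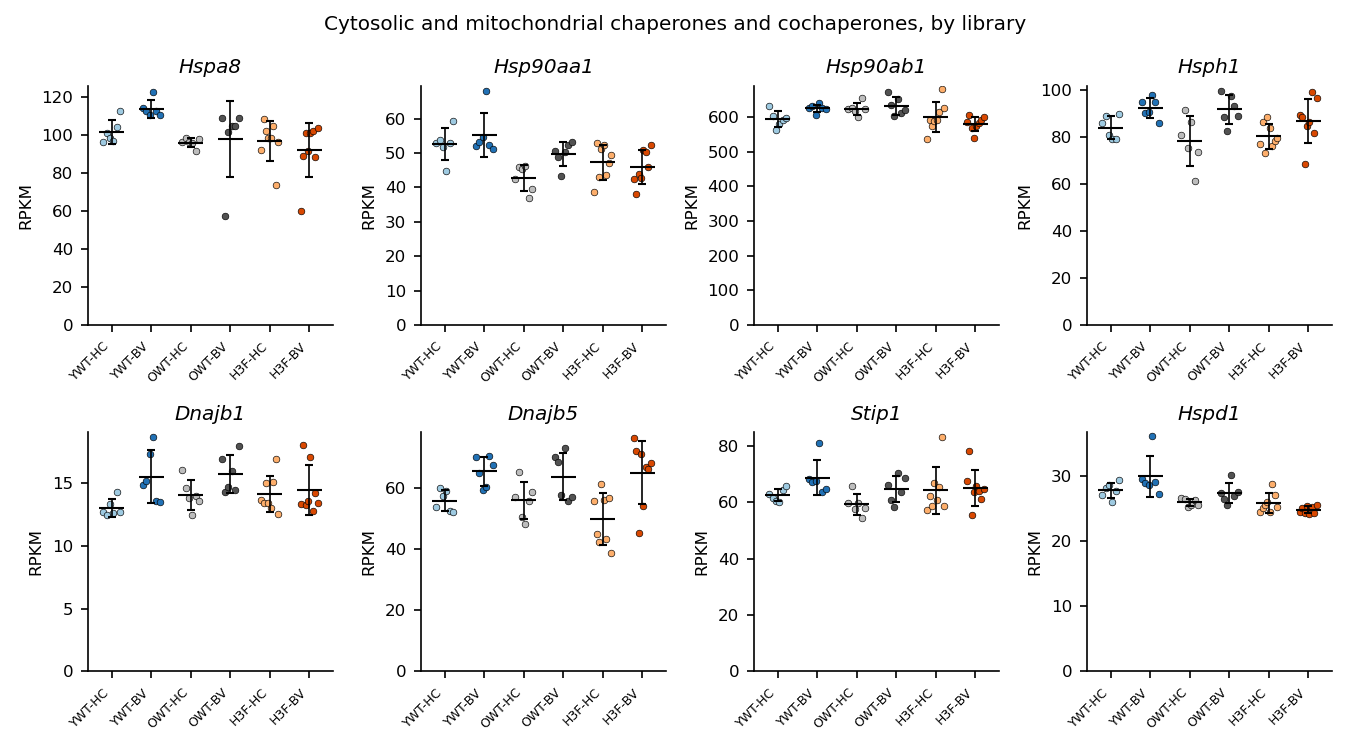
RPKM of 8 cytosolic and mitochondrial members in every library, grouped by age, genotype and training (x axis); points are libraries, bars the group mean and whiskers the SD. Dnajb5 and Hspa8 lie higher in YWT-BV than in YWT-HC libraries with a small overlap, and 1 OWT-BV and 1 H3F-BV library lie low for Hspa8.

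In old wildtype mice no member passed in limma, and neither did any of the genes tested (0% in each direction). At an unadjusted p under 0.05, 8 members were higher and 0 lower (10.4% and 0%, against 3.55% and 4.39% of all genes). In the same comparison all 6 markers of CA3 pyramidal cells were positive, each at an unadjusted p under 0.05, at a median of 0.54, and all 8 choroid plexus markers were positive at a median of 1.84, 3 of them at that p. No marker passed the call, and their part in the members' differences was not tested. No member was apart between the groups, against 0.176% and 0.12% of all genes. Dnaja4, a J-domain protein of the DNAJA family, lay at 17.9 to 24.7 RPKM (median 22.6) in OWT-HC and 24.1 to 29.7 (median 27.0) in OWT-BV mice, a difference of 0.27 ± 0.07 (adjusted p = 0.53). Of its exon bases 1581 lie under Wdr61 on the opposite strand.

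Hsp90aa1 lay at 37.0 to 46.1 RPKM (median 43.8) and 43.3 to 53.1 (median 50.4), a difference of 0.22 ± 0.07 (adjusted p = 0.53). The groups overlapped in both genes. Chordc1 (0.16 ± 0.06) was the third, and Hsph1 (0.24 ± 0.09), Hspa4 (0.10 ± 0.04) and Stip1 (0.12 ± 0.06) were the other core members at an unadjusted p under 0.05. Over the 77 members the median was 0.01, with 42 positive. Without OWT-HC-110A, 6 members passed as higher (Dnaja4, Hsp90aa1, Hsph1, Chordc1, Stip1 and Dnajc6, log2 differences 0.16 to 0.37, adjusted p from 0.114 to 0.138) and Dnajc13 as lower, where 417 of all genes tested were higher and 1438 lower.

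In old HDAC3flox/flox mice no member passed in limma, nor did any gene tested (0% in each direction). At an unadjusted p under 0.05, 2 members were higher and 4 lower, against 4.61% and 12.5% of all genes. No member was apart, against 0.0141% and 0.00706% of all genes. Dnajb5 again had the smallest p. It lay at 38.7 to 61.4 RPKM (median 50.2) in H3F-HC and 45.3 to 76.3 (median 67.6) in H3F-BV mice, with overlap, a difference of 0.38 ± 0.12 (adjusted p = 0.24).

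The next were Hspb6 (-0.71 ± 0.24) and Dnajb13 (-0.68 ± 0.25), both at an adjusted p of 0.24. Hspb6 lay at 5.59 to 14.4 RPKM (median 8.18) in H3F-HC and 2.76 to 9.44 (median 4.89) in H3F-BV mice. All 5 small heat shock proteins and all 8 members marked as ER residents had negative differences, with medians of -0.51 and -0.15. The microglial markers were negative in 8 of 8 genes at a median of -0.80, and oligodendrocyte markers in 8 of 8 at -0.36, without a call, while the 6 dentate granule cell markers were all positive at 0.71. Their part in these differences was not tested.

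This comparison changed most with the libraries used. H3F-BV-113D held 271 RPKM of Hsp90b1, 204 of Hspa5 and 19.8 of Dnajb11, where the other 7 libraries reached at most 136.3, 124.9 and 13.4. Its microglial sum (1344 RPKM) was the highest of its group. Without it 3 members passed as higher and 8 as lower, the lower ones being Hspb6 (-0.83, adjusted p = 0.0379), Hsp90b1 (-0.50, adjusted p = 0.0444), Dnajb11, Dnajc3, Dnajb13, Hspb2, Hspa5 and Hspb8, and the higher ones Dnajb5, Dnajb4 and Hsph1. Of the 14173 genes tested, 916 were then higher and 2179 lower. Without H3F-HC-112B the counts were 2 and 3 among members, and 593 and 1671 over all genes. With all 4 HDAC3flox/flox libraries that stood apart left out, 10 members were higher and 16 lower, and 2347 and 3528 of the 14173 genes were too.

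**Figure D4:**
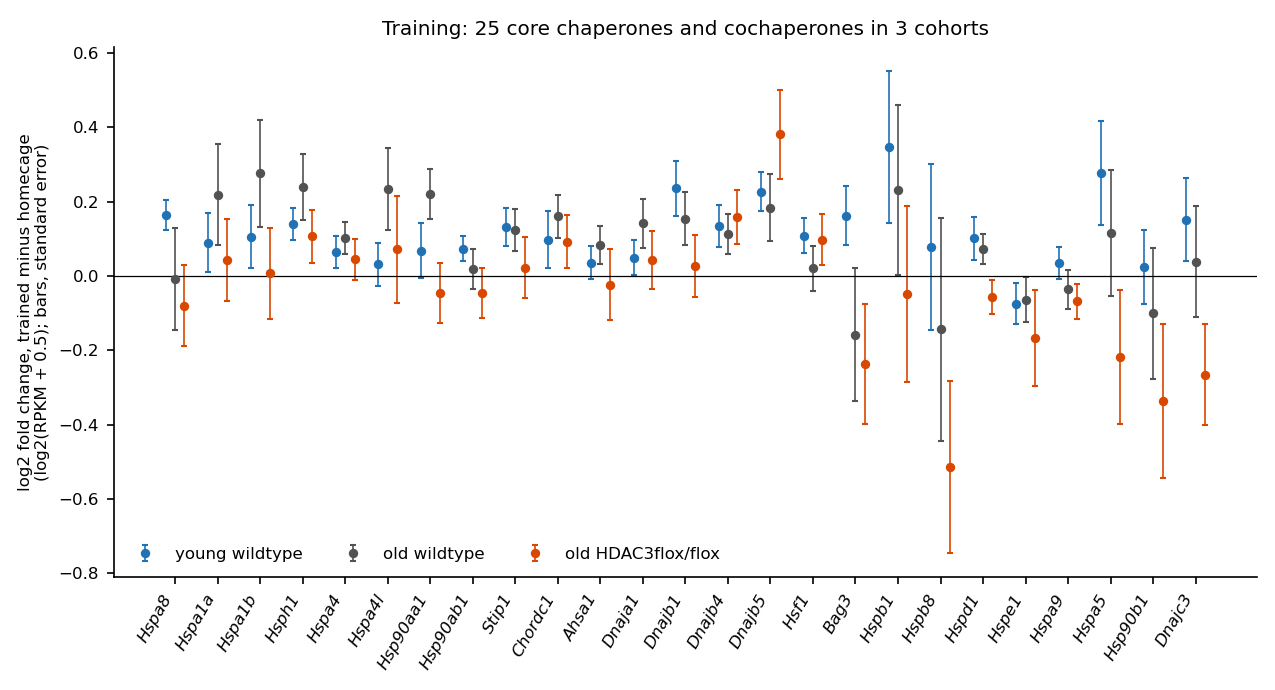
Log2 difference after training on the log2(RPKM + 0.5) scale (y axis, bars are standard errors) for the 25 core members (x axis) in young wildtype, old wildtype and old HDAC3flox/flox mice. None passed the threshold, and Dnajb5 was positive in all 3 cohorts (0.23, 0.18 and 0.38) while Bag3, Hspb8 and Hsp90b1 were negative in both old cohorts.

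Dnajb5 was positive in all 3 cohorts, at 0.23 ± 0.05, 0.18 ± 0.09 and 0.38 ± 0.12, as were Hsph1 (0.14 ± 0.04, 0.24 ± 0.09 and 0.11 ± 0.07), Dnajb4 (0.13 ± 0.06, 0.11 ± 0.05 and 0.16 ± 0.07) and Chordc1 (0.10 ± 0.08, 0.16 ± 0.06 and 0.09 ± 0.07). The cohorts share no mice. The difference of the training effects was tested as an interaction. For old wildtype minus young wildtype mice, no member passed in limma and no gene did (0%), with 3 members positive and 2 negative at an unadjusted p under 0.05 against 3.32% and 6.72% of all genes. The 3 smallest p were those of Dnajc2 (-0.29 ± 0.11), Hspa1l (0.25 ± 0.10) and Dnajc15 (0.20 ± 0.09), each at an adjusted p of 0.496. Without OWT-HC-110A 3 passed in each direction: Hspa1l, Dnajc6 and Dnajc27 as positive and Dnajc2, Dnajc13 and Dnajb3 as negative, where 577 genes of all tested passed as positive and 1971 as negative.

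For old HDAC3flox/flox minus old wildtype mice, none passed in limma and no gene did (0%), with 0 members positive and 2 negative at an unadjusted p under 0.05 against 2.54% and 1.67% of all genes. The 2 were Hsp90aa1 (-0.26 ± 0.11) and Hspd1 (-0.13 ± 0.06), both at an adjusted p of 0.997. The third smallest p was that of Dnajb13 (-0.76 ± 0.43), a low gene. Hsp90aa1 after training thus stood at 0.22 ± 0.07 in old wildtype and -0.05 ± 0.08 in old HDAC3flox/flox mice. No leaving out of a single library gave a call among the members in this interaction, and over all genes 1 was called as positive without H3F-BV-113D.

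The last question was whether deletion of Hdac3 changed the levels in old mice. In the home cage no member passed in limma, where 0% of all genes were higher and 0.127% lower. At an unadjusted p under 0.05, 2 members were higher and 2 lower, against 3.61% and 9.09% of all genes. No member was apart, against 0.0564% and 0.889% of all genes. Hspb6 lay at 2.27 to 7.64 RPKM (median 5.20) in OWT-HC and 5.59 to 14.4 (median 8.18) in H3F-HC mice, with overlap, a difference of 0.74 ± 0.26 (adjusted p = 0.309). All 8 oligodendrocyte markers were positive in this comparison, each at an unadjusted p under 0.05 and none called, at a median of 0.60. All 8 choroid plexus markers were positive at a median of 1.65, 3 of them at that p. All 8 microglial markers were positive at 0.54, 1 of them at that p. All 6 dentate granule cell markers were negative at -0.98, as were all 6 CA1 pyramidal cell markers at -0.22. Their part in these differences was not tested.

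Dnajb2, a neuronal J-domain protein, differed by 0.39 ± 0.14 (adjusted p = 0.322) and Hspa2 by -0.23 ± 0.10 (adjusted p = 0.366). Among the core, Bag3 (0.17 ± 0.17), Hspb8 (0.38 ± 0.26), Hspa5 (0.14 ± 0.17) and Hsp90aa1 (0.14 ± 0.08) did not pass. Without H3F-HC-121B, Bag6 passed as lower (-0.14, adjusted p = 0.0689), and so did 512 of all genes tested, with 60 higher. In that library Bag6 was 60.5 RPKM, Ahsa1 103.4 and Hspe1 49.0. Its dentate granule cell markers summed to the lowest value of all 40 libraries and its microglial markers to the highest (2496 RPKM). The part of these cell types was not tested.

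In trained mice none passed either, where 0.0141% of all genes were higher and 0.254% lower, and 0 members were higher and 3 lower at an unadjusted p under 0.05 against 0.572% and 4.18% of all genes. Hspd1 lay at 25.7 to 30.2 RPKM (median 27.2) in OWT-BV and 24.3 to 25.5 (median 24.8) in H3F-BV mice. The groups did not overlap, the single member so in that direction, against 0.325% of all genes, and none was apart in the other (0.0212%). The difference was -0.13 ± 0.04 (adjusted p = 0.614). Dnajc14 (-0.14 ± 0.06) and Hspa1b (-0.32 ± 0.15) followed.

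The members' spread between mice of 1 group was described last. The median SD of the members on the log2 scale was 0.08 in YWT-HC, 0.10 in YWT-BV, 0.14 in OWT-HC, 0.13 in OWT-BV, 0.19 in H3F-HC and 0.21 in H3F-BV mice, and that of all genes tested was 0.09, 0.11, 0.16, 0.15, 0.26 and 0.25 in the same order. The old groups were thus more variable for the members as for all genes. ER residents were farthest above the group mean in H3F-BV-113D (median 0.51) and YWT-BV-1923 (0.35). The small heat shock proteins and Bag3 were farthest above it in H3F-BV-108D (0.69) and OWT-HC-129A (0.61) and farthest below it in OWT-HC-110A (-0.75) and OWT-BV-104C (-0.63). The microglial sum was 203 RPKM in OWT-HC-110A and 389 in OWT-BV-104C, each the lowest of its group. So were their sums of astrocyte markers (896 and 909 RPKM) and endothelial markers (56.19 and 59.25 RPKM). OWT-BV-127C, the highest of its group for this gene set (0.52), had a microglial sum of 432 RPKM, below all of its group but OWT-BV-104C. The part of these cell types was not tested.

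**Figure D5:**
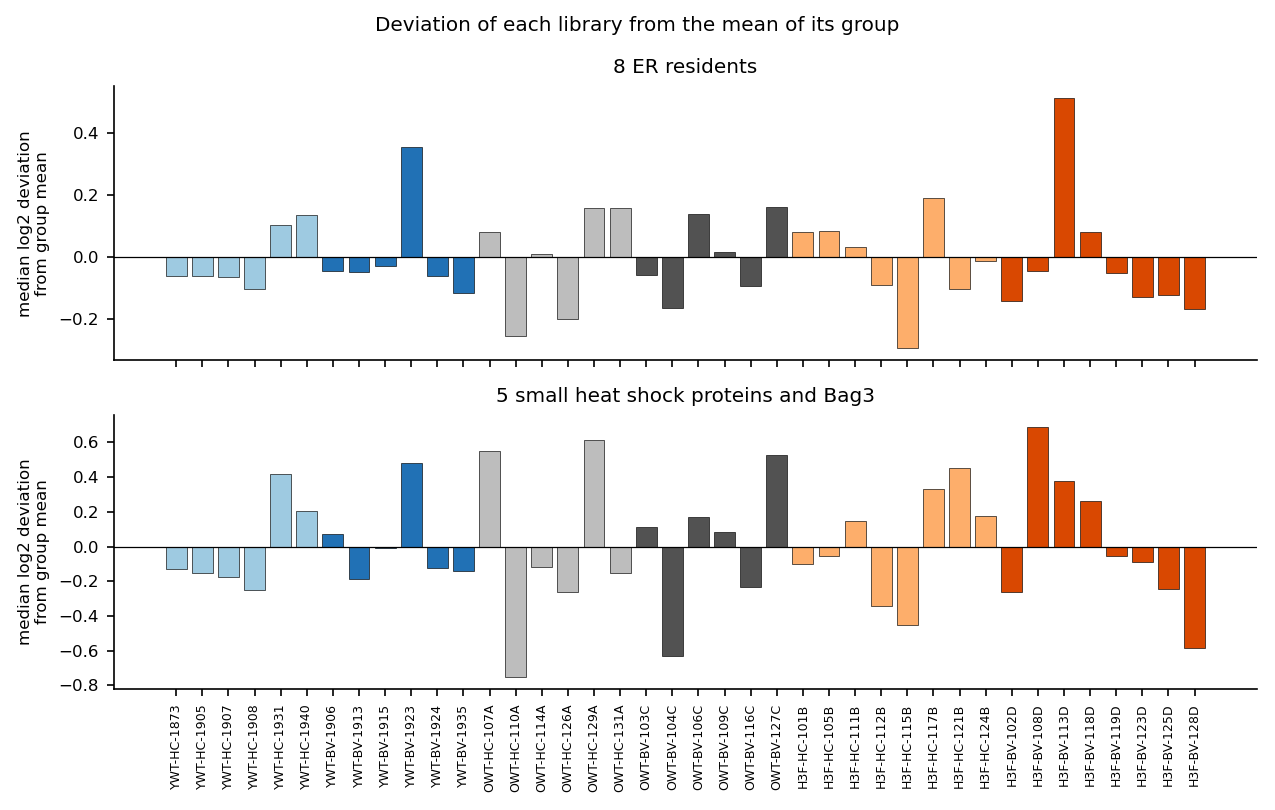
Median log2 deviation from the group mean (y axis) of the 8 ER residents and of the 5 small heat shock proteins with Bag3, for each of the 40 libraries (x axis; 1 bar a library, coloured by group). H3F-BV-113D (0.51) and YWT-BV-1923 (0.35) stand highest for the ER residents, and OWT-HC-110A (-0.75) lowest for the small heat shock proteins.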

How the data were processed

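RNA of bilateral dorsal hippocampus was sequenced from 40 mice, 1 library a mouse. The authors prepared TruSeq v2 libraries (poly-A, no strand marking) and single reads of 50 bases, filtered reads with CASAVA 1.8.2, aligned them with ELAND v2e and Bowtie (Bowtie2 in the submitters' processing notes) to mm10, removed reads that matched several places, and deposited RPKM values per gene. Reads from stretches that near-identical genes have in common are therefore lost. A second deposited table repeats these values beside the authors' own comparisons and was not used.

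Genes with a mean of at least 0.5 RPKM were tested with limma 3.58.1 (R 4.3.3, empirical Bayes with trend) on log2(RPKM + 0.5), a scale that understates the change of low genes. Each of 9 comparisons used its own groups. A gene was called at p under 0.05 and Benjamini-Hochberg adjusted p under 0.15 over all 14173 genes, the study's thresholds (the study used Cyber-T). Python 3.11.15, pandas 2.3.3, numpy 2.4.6, scipy 1.17.1 and matplotlib 3.10.9 were used for the rest, and the model was tested on simulated data. Depth was estimated from the RPKM steps of 735 short RNA genes (80.0 to 95.0% of values on a step, within 0.05 of a read). No 2 libraries held identical values, and each is a separate mouse.

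Members, gene lists and tests were chosen with earlier results of these data known. Named genes were a core of 25 members, up to 6 called members of smallest p in each direction (3 of smallest p where none was called), the 5 highest and 5 lowest by level, Hdac3, and up to 3 called genes of each list. Other genes were named after their values were seen, where they account for a count, stand apart or appear in a plot. Start windows came from RefSeq (GRCm38.p6) and coordinates from GENCODE on the same build. Alternatives were pseudocounts of 0.1 and 1, no minimum, a minimum of 1, scaling by median ratios, quantile normalization, a stricter adjusted p (under 0.05), 1 model of all 40 libraries, library weights and leaving out each library. Leaving out the 6 libraries that stand apart was chosen after seeing the data.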

Additional observations from a re-analysis of the deposited data

Results flagged for a closer look

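Of 246 groups checked over 41 named genes, 37 held a library far from the rest by Dixon's gap test, which chance gives in about 1 group in 20. Values are RPKM, and no cause was tested. YWT-BV-1923 was far above its group for Dnaja4 (27.7), Dnajb11 (16.9), Dnajc3 (21.6), Hsp90aa1 (67.9), Hsp90b1 (146.8), Hspa4l (33.0), Hspa8 (122.8), Hspa9 (88.0), Hspb6 (4.38), Hspb8 (17.5), Hspd1 (36.1) and Stip1 (81.0). These genes belong to the cytosol, the ER and mitochondria alike.

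H3F-HC-121B was far above its group for Ahsa1 (103.4), Bag6 (60.5), Dnajc15 (53.9), Hspa1a (2.73), Hspe1 (49.0) and Stip1 (83.2) and far below it for Dnajc14 (13.0) and Hspa8 (73.6). H3F-BV-108D was far above its group for Ahsa1 (87.4), Dnajc15 (45.5), Dnajc2 (17.9), Hspb1 (4.23) and Hspe1 (39.6) and far below it for Dnajc14 (16.5). Both libraries thus had Ahsa1, Dnajc15 and Hspe1 high and Dnajc14 low. Their RPKM over all genes also summed to the highest totals of the 40 libraries (371961 and 340591, the next being 318922 in H3F-HC-117B). Dnajb14, not among the genes checked, was 2.52 and 2.56 in them and at least 7.47 in every other library. H3F-BV-113D was far above its group for the ER chaperones Dnajb11 (19.8), Hsp90b1 (270.7) and Hspa5 (203.6) and far below it for Dnajb4 (16.8).

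Hspa8 was far below the group in OWT-BV-104C (57.4) and in H3F-BV-102D (60.4). OWT-HC-129A was low for Dnaja4 (17.9) and Dnajb2 (16.4), and YWT-HC-1908 for Dnajb4 (17.6). YWT-HC-1940 was high for Hspe1 (28.4) and H3F-BV-119D for Dnajc21 (13.9).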

How the results depend on the processing

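No paired analysis was possible because no group shares replicate numbers with another. Counts are members higher and lower, and the cause of each change was not tested. In old against young homecage mice (16 and 12) median-ratio scaling gave 10 higher, quantile normalization 8 and 22, and the model of all 40 libraries 6 lower, with 13 to 19 and 10 to 15 when a library was left out. In trained mice (7 and 2) median-ratio scaling gave 10 lower, quantile normalization 4 and 21, adjusted p under 0.05 gave 4 higher, the model of all libraries 2 and 1, weights 17 and 4, and leaving out a library 6 to 13 and 2 to 8. Besides YWT-BV-1923, this came from OWT-BV-109C (9 and 8 without it), OWT-BV-104C (9 and 3), OWT-BV-116C (8 and 3) and OWT-BV-127C (6 and 4). Over all genes tested, trained mice gave 1760 and 3150 after quantile normalization, 1059 and 393 in the model of all libraries, and 3383 and 1492 with weights. Homecage mice gave 2453 and 5311 of all genes after quantile normalization, and 3760 and 1577 in the model of all libraries.

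For training, where no member was called, young mice gave 1 higher after median-ratio scaling and 1 after quantile normalization. They gave 5 and 3 with weights (693 and 565 of all genes), and 0 to 3 and 0 to 2 without a library. Old wildtype mice gave 8 and 3 with weights (618 and 1754 of all genes), and 0 to 6 and 0 to 1 without a library. HDAC3flox/flox mice gave 3 and 4 in the model of all libraries, 13 and 17 with weights, and 0 to 3 and 0 to 8 without a library, the first 2 settings calling 1352 and 2280, and 2939 and 4255, of all genes. The difference of old from young training gave 9 and 4 with weights (994 and 2621 of all genes), and 0 to 3 in each direction without a library. That of HDAC3flox/flox from old wildtype gave 2 higher with weights (626 and 170 of all genes). For HDAC3flox/flox against old wildtype mice, homecage gave 2 and 3 in the model of all libraries (230 and 1335 of all genes). It gave 2 and 2 with weights (267 and 1379 of all genes) and 0 to 1 lower without a library. Trained mice gave 1 lower with weights (78 and 291 of all genes). Without the 6 libraries that stand apart, chosen after seeing the data, the counts were 3 and 2 in young, 6 and 1 in old wildtype and 10 and 16 in HDAC3flox/flox training, 5 and 2 for the old to young difference, 1 lower for homecage HDAC3flox/flox, and 13 higher in trained old mice. Of all genes, 505 and 460, 417 and 1438, and 2347 and 3528 were then called for training. The rest gave 763 and 1854, 28 and 474, and 3235 and 1313 of all genes, in the same order. No result changed sign under any alternative while called. Depth limits the lowest members, such as Hspb2.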
